A study of Populus tremula x Populus alba with 10 samples.

Results

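Severe drought in the stem of hybrid poplar was measured here with bulk RNA sequencing of 6 libraries, 3 from well-watered and 3 from droughted plants, out of 10 libraries in the series. All 6 bulk libraries of the deposited count table were used. The other 4 libraries hold single nuclei and serve below as a second readout. Each bulk library is total RNA of a wild type stem of Populus tremula x alba, INRA clone 717 1B4, a single clone, so the groups share 1 genotype. Plants grew for 6 weeks in peat before the treatment. Control plants were kept near field capacity, the water that a drained soil retains, with a soil moisture of 0.46 m3/m3. Drought plants went unwatered until the soil held 15% of field capacity and were held there for 14 days by weighing the pots. Wilting set in at a soil moisture of 0.1 m3/m3. Whether a library came from 1 plant or from pooled plants is not stated for bulk RNA, so the p-values measure the spread between these libraries.

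A woody stem carries water in its xylem and sugars in its phloem, and both tissues are renewed by the cambium, a thin layer of dividing cells. In plants short of water, the hormone abscisic acid is known to close stomata and to switch on protective genes, such as those for dehydrins, for enzymes making compatible solutes and for water channels. Growth, cell division and the making of secondary cell walls are known to slow. Genes are given below by the ID in the table, because it pairs no ID with a name, and no gene family or cell type marker could be examined. The labelled tissue was therefore not checked against markers.

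The table held 31823 genes, of which 26448 passed a filter on low counts and were tested. Libraries held 47900128 to 57594846 counts, and each had at least 1 count for 27700 to 28196 genes. Drought library 2 stood apart from the other drought libraries. To turn the profile of one drought library into that of another, 3.79% of the counts had to be placed on other genes between libraries 1 and 3, but 13.1% between 1 and 2 and 14.6% between 2 and 3. Among controls the same measure ran from 4.29% to 6.56%. Between a control and a drought library it was 22.3% to 23.9% for drought library 2, and 28.2% to 29.6% for libraries 1 and 3. Main counts are therefore given with and without drought library 2. This choice rests on these same values and leaves the closest drought pair, which itself favours more calls.

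Drought changed the level of about as many genes upward as downward. In all, 14329 genes (54.2% of those tested) were called at a false discovery rate (FDR) below 0.05 by edgeR's quasi-likelihood test with Benjamini-Hochberg adjustment, 7173 higher (27.1%) and 7156 lower (27.1%) under drought. Without drought library 2, 17816 of 26845 tested genes were called, 8794 higher and 9022 lower. The even balance is relative to the scaling of the libraries (trimmed mean of M values, TMM). Without it the median log2 fold change of all genes moved from 0.01 to -0.12, and 5802 genes were called higher against 8574 lower. In bulk RNA, fewer cells of a type and less RNA per cell cannot be told apart, here or in any result below.

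Most called changes were small, and the largest ones were mostly rises. The log2 fold change was below 1 in size for 7902 of the called genes (55.1%), and 6427 (44.9%) changed at least 2-fold. Without drought library 2, 8040 genes did, and with any other 1 library left out, 5487 to 5951. Changes of at least 4-fold were called for 1195 genes higher and 910 lower under drought. At 8-fold or more the counts were 581 higher and 247 lower. A log2 fold change of 4 or more was seen in 294 genes that were higher and 86 that were lower. Of these, 20 genes had 0 counts in every control and 36 had 0 counts in every drought library. The fitted fold of such genes depends on the small count that edgeR adds. With each of them set to the bound given by a floor of 3 counts over the empty group, 290 genes were higher and 79 lower at that size, and the 8-fold counts stayed at 581 and 247. When the test itself asked for a change beyond 2-fold (edgeR's glmTreat, FDR below 0.05), 2603 genes passed, 1415 higher and 1188 lower.

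The size of the response was then set against the level of each gene. Tested genes were divided into 5 classes of equal size by their mean log2 CPM over all 6 libraries, where CPM are counts scaled to a library total of 1000000. The lowest class reached up to 2.56 CPM, the next ones up to 8.94, 20.1 and 43.5 CPM, and the highest up to 7051 CPM. The median gene had a mean of 51 counts per library in the lowest class and 4101 in the highest.

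Weakly expressed genes showed larger fold changes but were called less often. In the lowest class 2010 of 5289 genes were called (38.0%), followed by 52.0%, 56.1%, 60.5% and 64.4% (3405 of 5290) in the highest. The median size of the log2 fold change over all genes of a class fell from 0.84 in the lowest to 0.59, 0.47, 0.45 and 0.46 in the others. Among called genes it fell from 1.83 to 1.10, 0.82, 0.71 and 0.71. Weak genes needed a larger change to be called. In the lowest class 90% of the called genes had a log2 fold change of at least 0.97 in size, against 0.34 in the highest.

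Replicate error followed the same slope. The median standard error of the log2 fold change was 0.39 in the lowest class and 0.11 in the highest. Of 599 genes with an estimated change of at least 2-fold that were not called, 533 lay in the lowest class and 5 in the highest. The share of genes that passed the test for more than 2-fold varied much less with level. It was 11.8% in the lowest class, then 11.3%, 9.08% and 7.77%, and 9.21% in the highest. Thinning every library to 10% of the counts of the smallest one left 10629 of 22189 tested genes called.

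**Figure D1:**
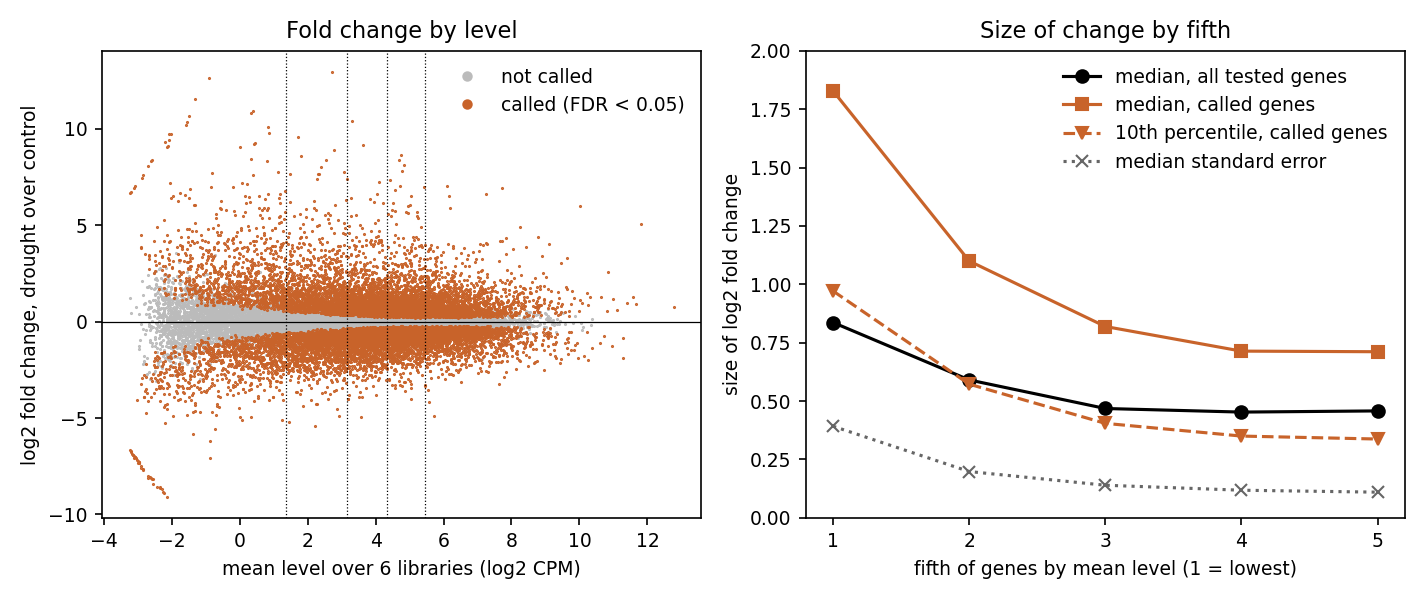
Fold change against level in bulk stem RNA. The left panel has 1 point per tested gene, with the log2 fold change of drought over control on the vertical axis, the mean log2 CPM of the 6 libraries on the horizontal axis and dotted lines between the 5 classes. The right panel gives, per class, the median size of the log2 fold change in all tested genes and in called genes, the value that 90% of called genes reach, and the median standard error. The median in called genes falls from 1.83 to 0.71 as the standard error falls from 0.39 to 0.11.

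Large rises extended to strongly expressed genes, whereas large falls were rarer there. In the highest class 17 genes had a called log2 fold change of 4 or more upward and 2 downward, and 39 against 5 lay between 3 and 4. Between 1 and 2 the counts were close, with 415 higher and 421 lower. In the lowest class 151 genes rose and 73 fell by 4 or more. These counts describe the libraries, and the difference between directions was not tested.

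Under drought the library was dominated by fewer genes. The 100 most abundant genes of each library took 12.0%, 12.0% and 12.4% of the counts in controls and 15.9%, 17.1% and 15.4% under drought. The groups did not overlap, with means of 12.2% ± 0.21 and 16.1% ± 0.84 (SD, n = 3 per group). A two-sided exact permutation test returned p = 0.10, the smallest value that 3 against 3 libraries allow, so this comparison could not pass 0.05. Without drought library 2 the difference between the means was 3.52 percentage points, against 3.99 with it. The 1000 most abundant genes took 36.9% ± 0.42 in controls and 40.7% ± 0.36 under drought (SD, n = 3 per group, exact permutation p = 0.10). The smallest number of genes that together held 50% of the counts was 2065, 2031 and 1984 in controls against 1738, 1718 and 1749 under drought. With the 10 genes of most counts left out, the gap in the share of the 100 most abundant genes narrowed from 3.99 to 1.06 percentage points, and the difference (drought minus control) in the number of genes holding 50% of the counts went from -292 to -123. A small set of genes therefore accounted for most of the first gap.

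**Figure D2:**
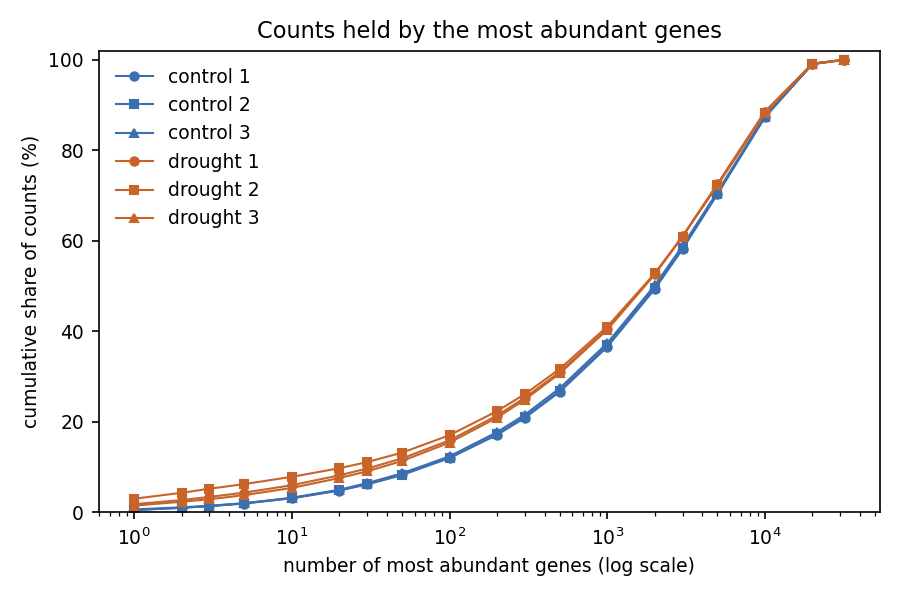
Share of a library's counts held by its most abundant genes. The vertical axis is the cumulative share of counts in percent, the horizontal axis the number of genes counted from the most abundant on a log scale, and each line is 1 library. Drought libraries lie above controls over the first 1000 genes, and drought library 2 is the highest of all at the left, with 7.87% of its counts in 10 genes.

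The identity of the dominant genes changed as well. Control libraries shared 84 to 92 of their 100 most abundant genes with one another. A control and a drought library shared 35 to 37 with drought libraries 1 and 3, and 44 to 48 with drought library 2. Among drought libraries, 1 and 3 shared 93, and library 2 shared 75 and 72 with them. By group means, 40 genes were in the top 100 of both groups, and 2 in both top 10 lists.

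Of the 10 most abundant genes in controls, 8 were called lower and 2 higher. All 10 most abundant genes under drought were called higher. In the list of 100, controls had 63 called lower and 20 higher, whereas the drought list had 79 called higher and 9 lower, against 54.2% of all tested genes called. A list picked for its level in 1 group leans toward genes that are lower in the other group, so these counts are a description. The control list of 10 took 3.15% of counts in controls and 2.17% under drought. The drought list of 10 took 1.75% in controls and 6.35% under drought. Of the drought list of 100, 19 genes ranked below 1000 in controls, 1 of them at rank 21860. In the other direction, 4 genes of the control list ranked below 1000 under drought, the lowest at 3040.

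Gains were concentrated in fewer genes than losses. Between the group means, 26.5% of the library moved from one set of genes to another. Among the genes that gained, 219 held 50% of the gain, and the 10 largest held 18.2%. Among those that lost, it took 670 genes to hold 50% of the loss, and the 10 largest held 6.67%. Genes called higher took 22.9%, 24.3% and 22.9% of the counts in controls and 50.9%, 44.5% and 50.9% under drought. Genes called lower went from 43.5%, 42.1% and 43.7% to 18.9%, 23.5% and 18.9%. Both sets were called on these same libraries, which sets the direction of each shift, so these shares are a description.

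The largest gain in CPM belonged to PtXaAlbH.13G084200. It stood at 497, 1074 and 482 CPM in controls 1 to 3 and at 18311, 30278 and 15075 CPM under drought. It was the most abundant gene of every drought library, with up to 3.03% of the counts, but ranked 155, 37 and 173 in controls. The groups did not overlap, and drought library 2 was the highest and control library 2 the highest of its group. Its log2 fold change was 5.08 (33.8-fold), with a standard error (SE) of 0.47 and an edgeR adjusted p of 0.000457 (n = 3 per group).

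The largest rise among genes with a control mean of at least 100 CPM was that of PtXaAlbH.13G084300, whose mean of 148 CPM passed that limit through control library 2. It had 96.9, 247 and 99.7 CPM in controls and 7096, 13138 and 5540 CPM under drought, and ranked 3, 2 and 3 there. Again control library 2 and drought library 2 were the highest of their groups, and the groups did not overlap. By edgeR the log2 fold change came to 5.98, with an SE of 0.57 and an adjusted p of 0.000494 (n = 3 per group).

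The IDs of these 2 genes are consecutive in the table's numbering. Together they took 0.0582% to 0.132% of control libraries, and 2.54%, 4.34% and 2.06% of drought libraries 1 to 3. The first stood at 4.35 to 5.13 times the CPM of the second in controls and at 2.30 to 2.72 times under drought. Levels per gene length are not known here. If they are similar copies, reads could be assigned to either, and this was not tested.

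The largest loss was that of PtXaAlbH.06G118600, which ranked second in each control. It fell from 5063, 4735 and 5079 CPM to 1128, 1489 and 1114 CPM, and to ranks 39, 22 and 42. Drought library 2 lay nearest the controls, and the groups did not overlap. On the log2 scale it fell by 1.87, with an SE of 0.15 and an edgeR adjusted p of 0.000339 (n = 3 per group).

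The deepest fall among genes with a control mean of at least 100 CPM was that of PtXaAlbH.07G082400. It went from 310, 214 and 402 CPM to 9.04, 7.35 and 11.8 CPM, from 10521 to 23141 counts in a control library to 392 to 573 counts in a drought library. Here drought library 2 was the lowest of all, and control library 2 the lowest of its group. The level was 30.1-fold lower, a log2 change of -4.91 with an SE of 0.31 and an edgeR adjusted p of 0.000165 (n = 3 per group). Over the alternatives run, the adjusted p of the 4 genes stayed at or below 0.00477.

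**Figure D3:**
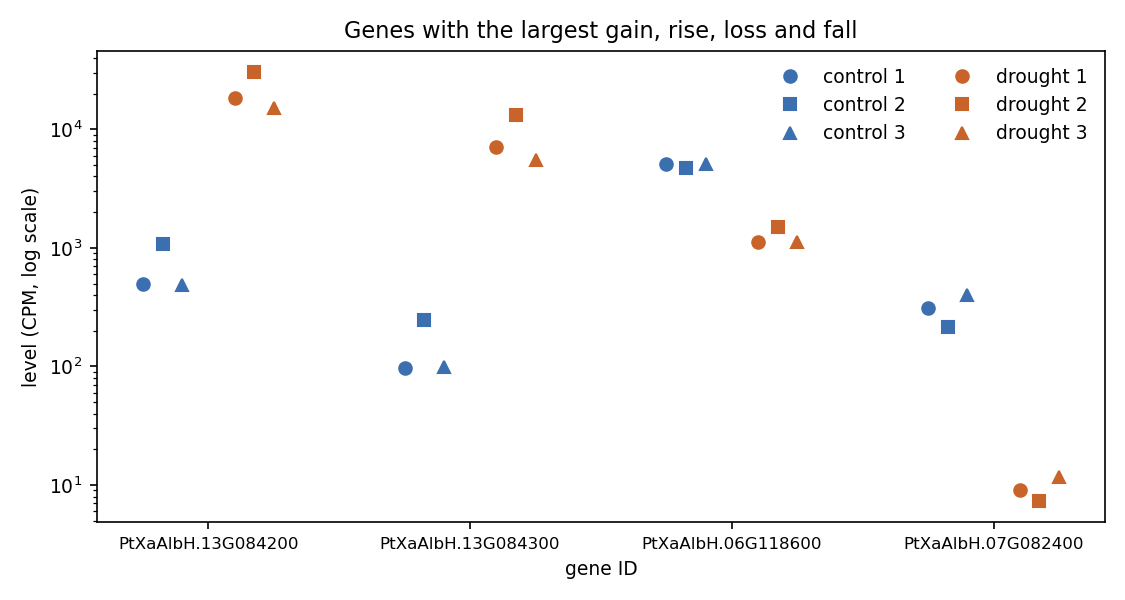
Level of the 4 named genes in each bulk library. The vertical axis is CPM on a log scale, each point is 1 library, and colours separate control from drought. Drought library 2 is the highest point of both genes that rose, at 30278 and 13138 CPM, and the lowest of PtXaAlbH.07G082400, at 7.35 CPM. Among the controls, control library 2 takes the same positions in these genes.

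Called genes mostly had drought libraries that did not overlap the controls, an outcome that a test of 3 against 3 libraries itself favours. Of the 14329 called genes (54.2% of those tested), 14135 had all 3 drought libraries beyond the range of the controls, 6990 of the higher and 7145 of the lower genes. Over all tested genes, called or not, 17080 (64.6%) had groups that did not overlap. A change of at least 2-fold from the control mean in each drought library was reached by 3991 called genes, 2006 higher and 1985 lower. Without drought library 2, 7280 called genes reached it in both remaining libraries, out of a larger set of called genes. Without drought library 1 or 3 the counts were 3991 and 4066.

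The response was graded among the drought libraries, and library 2 was the least changed for most genes. Of the 14135 genes, library 2 lay nearest the control mean in 10153 (71.8%), library 1 in 1625 (11.5%) and library 3 in 2321 (16.4%), with 36 ties. The median log2 change of genes called higher was 0.96 in library 1, 0.71 in library 2 and 0.97 in library 3. For genes called lower it was -1.01, -0.70 and -1.02. Per gene, library 2 reached a median of 82.1% of the mean change of the 3 libraries in genes called higher and 76.1% in genes called lower. Libraries 1 and 3 reached 108% and 110% in the first set and 111% and 112% in the second. These values are relative to TMM scaling. Without scaling, library 2 lay nearest in 10261 genes.

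**Figure D4:**
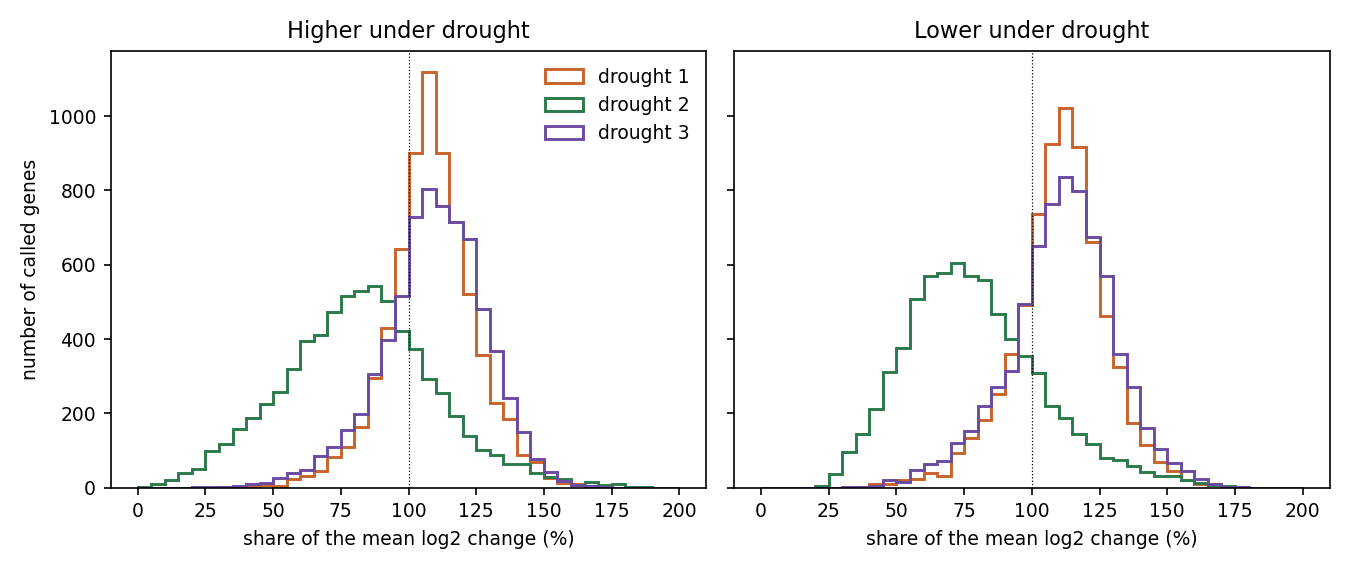
Share of the response reached in each drought library. For each called gene with all 3 drought libraries beyond the controls, the log2 change of 1 library from the control mean is given in percent of the mean change of the 3 libraries, with the number of genes on the vertical axis. Library 2 peaks below 100% in both panels, at a median of 82.1% for genes called higher and 76.1% for genes called lower, and libraries 1 and 3 overlap above 100%.

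For many genes this gradation was wider than the spread of the controls. Library 2 was nearer to the controls than both other drought libraries by more than the whole control range in 6541 genes. The same count was 261 for library 1 and 461 for library 3. Library 2 changed less than 50% as far as either other library on the log2 scale in 2612 genes, against 50 and 78 genes for libraries 1 and 3. The drought libraries were as close together as the controls in 4230 called genes (29.5%), against 32.3% of all tested genes, by the range of log2 CPM. The median SD of log2 CPM over all tested genes was 0.13 among controls and 0.22 among drought libraries.

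The gradation was similar at every level of expression, whereas its measures varied with the size of a change. All these genes were called with groups that did not overlap. Of tested genes with a log2 fold change under 0.5, 20.8% were called, against 89.4% between 1 and 2. A small change passes such a filter more readily when the drought libraries agree. The trend with size can therefore follow in part from the selection. The median share reached by library 2 was 79.5%, 76.5%, 78.0%, 78.7% and 81.4% from the lowest to the highest class. Among genes that were higher, library 2 was the nearest in 54.9% of those with a log2 fold change under 0.5, in 65.5% of those between 0.5 and 1, and then in 74.1%, 87.2%, 88.8% and 91.3% of those between 1 and 2, between 2 and 3, between 3 and 4, and at 4 or more. Among genes that were lower, the shares in the same order were 56.3%, 74.2%, 81.8%, 82.7%, 76.4% and 41.9%. The last share is lowered by genes in which the libraries tied. In that class libraries 1 and 3 were each the nearest in 8.14%. The median share of the change reached by library 2 went from 88.8% in the smallest rises to 74.8% between 3 and 4 and 77.3% at 4 or more. For falls it went from 87.1% to 70.3% between 2 and 3 and 74.9% between 3 and 4. The class of falls at 4 or more held 86 genes, 36 of them with 0 counts in every drought library, where no order can be read.

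By the nearest library, the same order held among the 100 largest gains in mean CPM. Library 2 was the nearest to controls in 69, against 69.6% of all genes called higher with groups that did not overlap. It was also the farthest in 26 of the 100, against 23 for library 1 and 51 for library 3. Over all those genes called higher, library 2 was the farthest in 19.2%, library 1 in 34.5% and library 3 in 46.3%. Among the 10 largest gains library 2 was the nearest in 4 and the farthest in 4. All 10 of the largest losses had library 2 nearest the controls. The excess over the control mean, summed over the genes above it, was 23.1% of the counts in library 2, less than the 28.9% and 29.0% in libraries 1 and 3. The 2 named genes that rose held 4.26 percentage points of that in library 2, against 2.46 and 1.98 in libraries 1 and 3. Without them the excess was 18.8% in library 2 and 26.4% and 27.0% in the others. Measured from the control mean, drought library 2 thus had a smaller response across genes together with the largest rise of those 2 genes. Control library 2 was likewise the highest control for both, at 1074 and 247 CPM. Whether the lead of drought library 2 in these genes exceeds the spread of the controls was not tested. Stem composition, RNA quality and the water status of the plant material are not given per library in the labels, and their part was not tested.

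For a further set of genes library 2 stayed among the controls while libraries 1 and 3 did not. Both lay at least 2-fold above the control mean, with library 2 inside the control range, for 308 tested genes, and at least 2-fold below for 123. The fit on all 6 libraries called 133 of these 431 genes (30.9%), against 54.2% of all tested genes. A drought library inside the control range itself works against a call. The lower share therefore follows largely from how these genes were picked. The corresponding counts with library 1 inside the control range were 32 and 14, and with library 3 inside it 31 and 22. Of these last sets, 1 gene was called in all.

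The nuclei libraries, made from other preparations and sharing no library with bulk, gave a second measurement. UMIs, which tag single RNA molecules, were summed over each of 2 control and 2 drought libraries. In nuclei 1835 of 20768 tested genes (8.84%) were called by edgeR, 754 higher (3.63%) and 1081 lower (5.21%). The libraries share 18 to 56 cell barcodes in pairs, at most 1.33% of the smaller library.

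Genes with larger changes in bulk had larger changes of the same direction in nuclei, at a smaller size. The classes were set by the call and fold in bulk, which favours large bulk estimates. A smaller size in a second measurement is therefore favoured by the selection itself. For genes called higher in bulk with a log2 fold change under 0.5, the median nuclei log2 fold change was 0.13. It was 0.43 for those between 1 and 2, 0.71 between 2 and 3, and 1.05 at 4 or more. For genes called lower the medians were -0.15, -0.56, -0.90 and -1.49 in the same order. Over all 20588 genes tested in both it was 0.01. Over all genes tested in both, 8.72% were called in nuclei. At a bulk rise between 3 and 4, 30 of 112 genes were called in nuclei, all 30 higher. At a bulk fall between 2 and 3, 153 of 471 were called, 150 of them lower. Small bulk changes were called less often, with more calls in the other direction. At rises between 0.5 and 1, 139 nuclei calls were higher and 16 lower. At rises under 0.5, 37 of 1360 genes (2.72%) were called, 30 higher and 7 lower. At falls under 0.5, 53 of 1196 (4.43%) were called, 48 lower and 5 higher. Among genes not called in bulk, 398 of 8836 (4.50%) were called in nuclei, 221 higher and 177 lower.

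Large bulk changes were often out of reach in nuclei. Of the 294 genes at 4 or more upward, 76 had enough UMIs to be tested in nuclei, and 25 of the 86 downward. The medians above therefore cover the better expressed part of these classes.

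**Figure D5:**
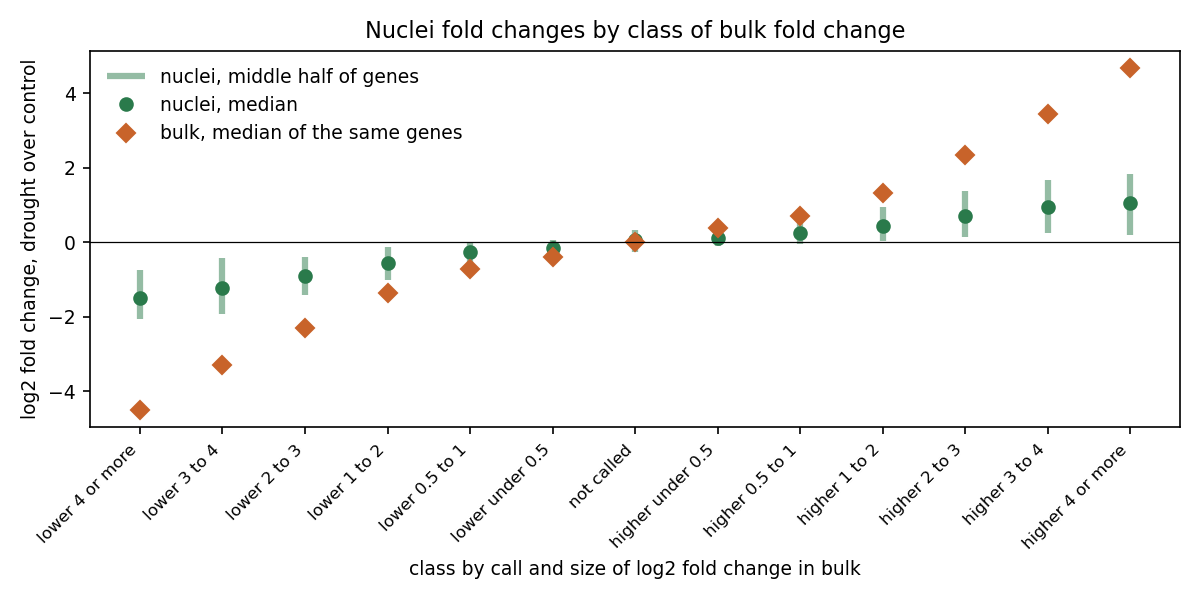
Nuclei fold changes by class of bulk fold change. Classes on the horizontal axis are set by the call, the direction and the size of the log2 fold change in bulk; diamonds give the bulk median and circles the nuclei median of the same genes, with bars over the middle 50% of genes in nuclei. The nuclei median runs from -1.49 to 1.05 across classes and is smaller in size than the bulk median in each called class. These classes were selected on the bulk values.

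The 4 named genes changed in the same direction in nuclei. For PtXaAlbH.13G084200 the control libraries held 648 and 482 UMIs, and the drought libraries 5210 and 6029. Its rise on the log2 scale was 4.31, with an SE of 0.22 and an edgeR adjusted p of 3.7e-05 (n = 2 per group). PtXaAlbH.13G084300 went from 266 and 211 to 1901 and 2429 UMIs, a rise of 4.17 on the log2 scale with an SE of 0.22 and an edgeR adjusted p of 3.7e-05. Both had more UMIs in each drought library, although these held fewer UMIs in all (1932106 and 1996618, against 4363243 and 3651340 in controls). PtXaAlbH.06G118600 went from 6535 and 5618 to 1400 and 1368 UMIs. On the log2 scale it fell by 1.15, with an SE of 0.18 and an edgeR adjusted p of 0.0081. PtXaAlbH.07G082400 was at 205 and 105 UMIs in control libraries, and at 2 and 0 in drought libraries. Its log2 change in nuclei was -6.15, with an SE of 0.65 and an edgeR adjusted p of 0.0017. That was larger in size than the -4.91 in bulk and rests on those few drought UMIs.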

How the data were processed

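Read counts per gene in 6 bulk libraries and UMI counts per barcode in 4 nuclei libraries were deposited by the authors as raw counts, as the values show. HISAT2 is named in the submitters' processing notes, with no role. Per the labels' protocols, bulk libraries were stranded mRNA libraries (TruSeq). The counting software, genome build and use of strand are not given in the sources used, so counts of similar copies, overlapping genes and alleles are uncertain. Replicates differed beyond sampling noise (chi-square of counts of 9.71 to 149 per degree of freedom), so each library was 1 replicate.

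Differential expression used edgeR 4.0.16 in R 4.3.3 (TMM, filterByExpr, quasi-likelihood F test, Benjamini-Hochberg FDR of 0.05). Standard errors are the log2 fold change over the square root of F. Levels per library are CPM, or log2 CPM with TMM scaling and a prior count of 2 for ranges and shares. Nuclei counts were summed over all deposited barcodes, without 25 ribosomal and transfer RNA features (0.0574% to 0.478% of UMIs). Doublets were not removed, since sums over a library do not depend on how nuclei share barcodes. The 4 named genes follow a rule: the largest gain and loss in mean CPM, and the largest rise and fall in fold change at a control mean of 100 CPM or more. DESeq2 1.42.0, no scaling, no filter, thinning, a replicate block and leaving out each library were alternatives. Shares of counts had 95% Wilson intervals at most 0.0283 percentage points wide, which cover counting error only. The tests were checked on simulated data with the same dispersion for all genes and both groups, and few changed genes. That check does not cover the uneven spread and the many changes of these data. The comparisons and rules were chosen with earlier results of these data known.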

Additional observations from a re-analysis of the deposited data

How the results depend on the processing

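Counts of called genes stayed within 1.5 times of the reported value, with these exceptions. The count in the lowest expression class was 951 without a filter on low counts, where classes are formed over 29693 genes, and ran from 1276 to 2556 when each library was left out in turn. Genes beyond 2-fold numbered 2603 when the fold was tested and not only estimated. Genes at least 2-fold in each drought library ran from 3883 to 7280 over the libraries left out, the highest value being that without drought library 2. All called genes ran from 10513 without control library 3 to 17816 without drought library 2. The nuclei count was 2816 without a filter and 853 to 2241 with a nuclei library left out. The lowest value was that without nuclei drought library 2, which is not the bulk library of that number. Thinned to 10% of the smallest library, 1686 genes were called in the lowest and 2628 in the highest class of the genes then tested. The higher share of the 100 most abundant genes and the lower number of genes holding 50% of the counts kept their direction under each alternative run on them.

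Across all tested genes no pairing of the bulk libraries by replicate number was visible as a correlation, and the labels state none. Deviations from the group means of same-numbered libraries correlated across genes at -0.0018, -0.0093 and 0.030. With 3 libraries per group, these values cannot exclude that same-numbered libraries shared a batch. With a replicate block 12779 genes were called, 6111 of them at least 2-fold, 1605 in the lowest and 3130 in the highest class. Of those, 12550 had all drought libraries beyond the controls, 3901 changed at least 2-fold in each, and library 2 was nearest the controls in 9211. In nuclei 1672 genes were called with the block. The 4 named genes kept their direction and stayed called under each alternative run on them, the block included.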

Other observations

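By which library lay nearest the other group, control libraries were not graded to the same extent. Counted around the drought mean over the 14135 genes, control library 2 lay nearest the drought libraries in 41.1%, control library 1 in 32.4% and control library 3 in 26.4%. Control library 2 was nearer than both others by more than the whole drought range in 1032 genes, against 606 and 333 for control libraries 1 and 3. The drought range is the wider yardstick, with a median log2 range in called genes of 0.41, against 0.23 in controls. These counts are therefore not on the same footing as those of the drought libraries.

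Genes called higher that went farthest in library 2, by more than the control range, numbered 357. They took 1.88% to 2.07% of control libraries and 2.87%, 3.96% and 2.67% of drought libraries 1 to 3. The corresponding sets for libraries 1 and 3 held 377 and 618 genes.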
